A study of Mus musculus with 18 samples.

Results

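Induced embryoid bodies at 24 h were compared with uninduced embryoid bodies at 48 h. The aim was to see which genes in cultures given Msgn1 stood above, at or below their level in cultures that differentiated on their own for 24 h longer. The groups were chosen by the sample titles, 3 arrays of each, which is 6 of the 18 arrays of the series. Every group came from the same mouse embryonic stem cell line of strain 129P2 (formerly called 129/Ola), named A2loxFMsgn1, in which doxycycline turns on a Flag-tagged copy of Msgn1. The induced 24 h group received 1 µg/ml doxycycline on day 2 of differentiation and was taken on day 3. The uninduced 48 h group received none and was taken on day 4. Uninduced 24 h embryoid bodies (3 arrays, day 3, no doxycycline) are given beside them as the same-age level, and uninduced 12 h ones where an independent time course is needed. The stem cells had been kept on mitomycin-treated mouse embryonic fibroblasts before they were plated for differentiation.

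Doxycycline and culture time both differ between the 2 groups, so their effects cannot be told apart in the comparison alone. No group here has doxycycline without the cassette, and the labels name 1 line for all groups. The labels call the 3 arrays of a group biological replicates.

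Mesoderm forms when epiblast cells pass through the primitive streak, lose epithelial contacts and take on regional fates under Wnt, Nodal, Fgf and Bmp signals. Cells that leave the streak beside the midline become presomitic mesoderm, where Notch and Wnt signalling oscillate and segments are laid down as somites. Msgn1 (mesogenin 1) belongs to the basic helix-loop-helix family and is expressed in this tissue, and genes for Notch ligands are among those it is known to act on in the mouse. Other streak descendants form cardiac and blood-forming mesoderm, and the anterior streak gives rise to definitive endoderm and the node.

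Each array gave a linear signal intensity for 45101 probe sets. The array medians lay between 18.8 and 22.1, and pairs of arrays of 1 group correlated at 0.990 to 0.994 (Pearson's r across all probe sets on the log2 scale). Msgn1 had signals of 56.7, 52.9 and 67.3 on the induced 24 h arrays, against 5.05, 8.68 and 4.69 on the uninduced 48 h arrays and 11.99, 16.3 and 5.22 on the uninduced 24 h arrays. Both uninduced groups lay below the induced group on every array. The uninduced 48 h signals were under the array medians and under 13.2, the mean a gene had to reach in at least 1 group to be tested. Of the groups compared, only induced 24 h could thus bring Msgn1 through that filter, so its test is no independent check of the labels. The log2 difference between induced 24 h and uninduced 48 h was 1.25 ± 0.116 (SE; limma adjusted p = 1.09e-07). Differences are on the log2(signal + 32) scale throughout, as induced 24 h minus uninduced 48 h unless another pair is named, and the offset of 32 understates the change of dim genes. Whether this probe set reports the cassette transcript, the chromosomal gene or both was not tested.

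Of 14282 genes tested, 1886 (13.2%) differed at a limma adjusted p under 0.05. These are the genes described as called, higher or lower. In induced 24 h embryoid bodies 1039 genes (7.27%) were higher and 847 (5.93%) were lower than in uninduced 48 h ones, and 72 of the higher and 47 of the lower genes differed by at least 2-fold. A gene was described as close where the 95% confidence interval of its difference lay within 0.5 of 0 on the log2 scale, and this held for 10852 genes (76.0%). These shares of all genes (7.27% higher, 5.93% lower, 76.0% close) are the background for every count by list below. Of the close genes, 304 were also called. A further 1848 genes were neither called nor close, and for those the arrays do not settle whether the levels match. The 3 arrays of each group lay wholly apart for 4328 genes (30.3%). The scatter plot of group means shows the genes spread on both sides of the line of equal level.

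**Figure D1:**
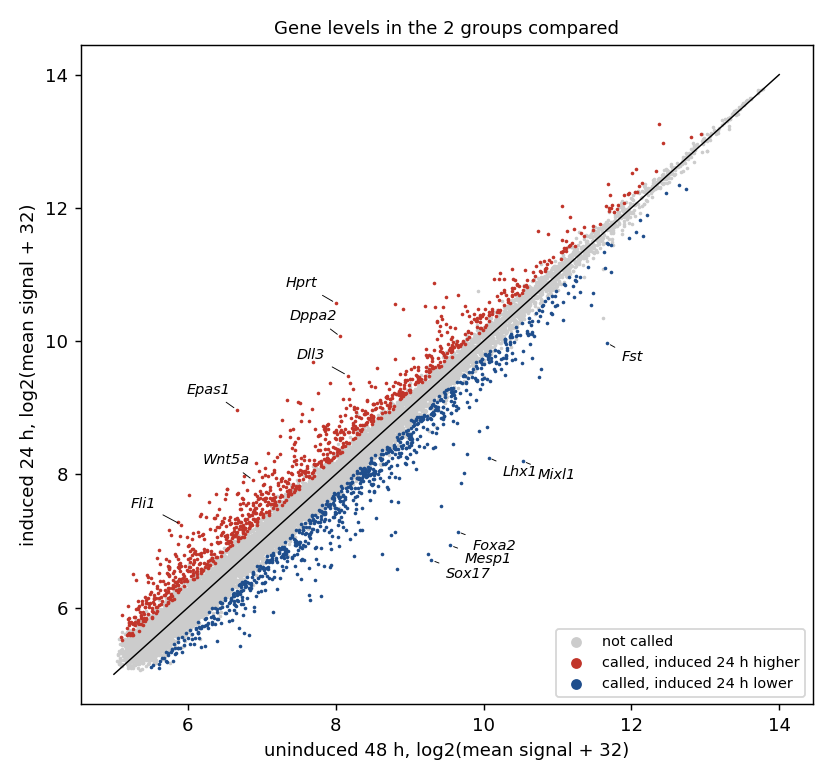
Mean level of each of the 14282 genes in induced 24 h embryoid bodies (vertical axis) against uninduced 48 h embryoid bodies (horizontal axis), both as log2(mean signal + 32), means of 3 arrays each. Red points are the 1039 genes called higher in induced 24 h, blue points the 847 called lower and grey points the rest; the line marks equal levels, with Hprt and Epas1 far above it and Mesp1, Sox17 and Foxa2 far below.

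The promoters of 3 genes are shown because these genes, all of the presomitic mesoderm list, stand for the 3 outcomes of the comparison. Dll3 was above the uninduced 48 h level, Dact1 was close to it and Mesp1 was below it. The windows run from 250 bases before to 50 bases after the RefSeq start in build GRCm38.p6, and capitals mark the motif CANNTG (the E-box, the class of site that basic helix-loop-helix factors bind; the motif is its own reverse complement, so both strands are covered). They lie at chr7:28301736-28302035, minus strand (Dll3), chr12:71309634-71309933, plus strand (Dact1) and chr7:79793541-79793840, minus strand (Mesp1).
Dll3: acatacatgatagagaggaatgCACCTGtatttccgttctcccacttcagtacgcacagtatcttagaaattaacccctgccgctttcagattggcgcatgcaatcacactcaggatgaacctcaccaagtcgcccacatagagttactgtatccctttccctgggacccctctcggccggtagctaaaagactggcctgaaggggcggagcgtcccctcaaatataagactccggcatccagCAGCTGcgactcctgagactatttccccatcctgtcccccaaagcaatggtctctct
Dact1: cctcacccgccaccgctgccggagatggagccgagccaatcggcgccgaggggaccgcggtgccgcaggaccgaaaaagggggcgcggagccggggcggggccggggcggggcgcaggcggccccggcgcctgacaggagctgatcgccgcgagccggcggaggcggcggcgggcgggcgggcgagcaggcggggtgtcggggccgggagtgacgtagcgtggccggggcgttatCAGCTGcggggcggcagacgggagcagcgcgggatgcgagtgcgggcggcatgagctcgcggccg
Mesp1: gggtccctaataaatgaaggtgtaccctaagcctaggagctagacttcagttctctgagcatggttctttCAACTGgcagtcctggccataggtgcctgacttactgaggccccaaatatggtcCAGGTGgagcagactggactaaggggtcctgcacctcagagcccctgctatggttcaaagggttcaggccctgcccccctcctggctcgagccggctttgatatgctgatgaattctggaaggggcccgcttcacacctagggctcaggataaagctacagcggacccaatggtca
The Dll3 and Mesp1 windows held 2 such motifs each and the Dact1 window held 1. Among all 32851 RefSeq promoters of the same length, 72.3% held at least 1 and 39.6% at least 2, so the motif does not set these windows apart. No binding was measured here.

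The Delta ligand genes Dll3 and Dll1 and the receptor genes Notch1 and Notch3 were higher in induced 24 h than in uninduced 48 h embryoid bodies, while the ligand genes Jag1 and Dll4 and the receptor gene Notch4 were close. Notch3, Dll4 and Notch4 were named after their values were seen. Dll3, which encodes a divergent Delta protein of the presomitic mesoderm, had signals of 637, 737 and 678 in induced 24 h embryoid bodies, against 246, 270.4 and 246 in uninduced 48 h and 135, 136 and 125 in uninduced 24 h ones. Every induced array was above the highest uninduced 48 h array, and the log2 difference was 1.32 ± 0.0807 (SE; limma adjusted p = 2.22e-10). Dll1, the main Delta ligand of somite segmentation, had 197, 166 and 187 in induced 24 h, against 81.9, 115 and 84.2 in uninduced 48 h and 80.3, 100.1 and 80.3 in uninduced 24 h. The induced arrays did not overlap either uninduced group, and the log2 difference from uninduced 48 h was 0.78 ± 0.128 (SE; limma adjusted p = 1.51e-04). The receptor Notch1 had 189.7, 237 and 263 in induced 24 h, against 149, 154 and 93.4 in uninduced 48 h, a log2 difference of 0.69 ± 0.14 (SE; limma adjusted p = 0.00157) with no overlap of arrays. Of its 2 probe sets 1 was called. Hes6, a Hes family member that opposes Hes1, had 879.5, 836 and 742 in induced 24 h, against 401, 398 and 439 in uninduced 48 h and 554, 597 and 562 in uninduced 24 h. Its log2 difference was 0.94 ± 0.0873 (SE; limma adjusted p = 1.29e-07), from a probe set that may match other transcripts, and uninduced 48 h was itself below uninduced 24 h (-0.44, limma adjusted p = 6.73e-04). In bulk RNA a different number of cells of a type and a different amount of RNA per cell cannot be told apart, and this holds for every gene below.

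Further genes of the presomitic mesoderm list and its surroundings were above the uninduced 48 h level as well. Cited1, a transcriptional co-regulator expressed in nascent mesoderm, had signals of 120.1, 124 and 128 in induced 24 h, against 24.3, 29.7 and 25.6 in uninduced 48 h embryoid bodies (1.41 ± 0.166 SE, limma adjusted p = 2.92e-06). Epha4, an Eph receptor of segment borders, had 218, 198 and 292 in induced 24 h, against 125, 124 and 84.2 in uninduced 48 h (0.90 ± 0.154 SE, limma adjusted p = 2.73e-04, with 4 of its 5 probe sets called). Both genes were apart on all arrays. Wnt5a, a ligand of the non-canonical Wnt pathway, had 216, 217 and 193 in induced 24 h, against 91.8, 102 and 64.7 in uninduced 48 h and 26.95, 31.4 and 22.9 in uninduced 24 h embryoid bodies, a log2 difference of 1.04 ± 0.115 (SE; limma adjusted p = 1.25e-06) from uninduced 48 h. Here the uninduced cultures had themselves risen between 24 h and 48 h (0.99, limma adjusted p = 1.38e-06), and the induced cultures stood above the later level. Fabp7, a fatty acid binding protein best known from neural progenitors, followed the same order of means, with 327 in induced 24 h, 142 in uninduced 48 h and 56.1 in uninduced 24 h (1.06 ± 0.139 SE, limma adjusted p = 1.30e-05 for induced 24 h against uninduced 48 h). Prickle1, a planar polarity gene, was called higher (0.33 ± 0.0929 SE, limma adjusted p = 0.0187), but 1 of its 3 probe sets carries this. The call was lost with the mean of the probe sets (adjusted p = 0.515) and without induced 24 h replicate 2 (adjusted p = 0.0822) or uninduced 48 h replicate 3 (adjusted p = 0.108).

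Of the 33 genes in the presomitic mesoderm list, 32 were matched to a probe set and 29 were bright enough in at least 1 group to be tested. In induced 24 h embryoid bodies 6 of the 29 were higher and 10 were lower than in uninduced 48 h ones, 7 were close, and the median log2 difference was -0.26, beside 0.02 over all genes. The members of the list went both ways. The higher members were Cited1 (1.41), Dll3 (1.32), Msgn1 (1.25), Epha4 (0.90), Dll1 (0.78) and Prickle1 (0.33), and the largest differences among the lower members were Mesp1 (-2.63), Sp5 (-1.85), Fgf8 (-1.70) and Cyp26a1 (-1.33). Against uninduced 24 h embryoid bodies, which share the induced arrays with the comparison above, 16 of the 29 were higher and 0 lower, where 2.91% and 0.994% of all genes were. From uninduced 24 h to 48 h, 17 rose and 0 fell, where 12.8% and 11.7% of all genes did. In the Notch pathway list 7 of 32 genes were higher and 5 lower. The lower count is not firm: it was 1 without uninduced 48 h replicate 1, 2 without uninduced 48 h replicate 2 or induced 24 h replicate 2, and 3 without induced 12 h replicate 2 or induced 48 h replicate 3.

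In the endothelial and blood list some transcription factor genes were higher in induced 24 h than in uninduced 48 h embryoid bodies, others close and 2 lower. Fli1, an Ets factor of blood vessel progenitors, had signals of 106, 129 and 125 in induced 24 h, against 20.5, 37.3 and 26.7 in uninduced 48 h and 39.2, 25.7 and 28.1 in uninduced 24 h embryoid bodies. The induced arrays lay above all 6 uninduced ones, and the log2 difference from uninduced 48 h was 1.34 ± 0.138 (SE; limma adjusted p = 4.63e-07). Tal1, required for blood formation, had 126, 135 and 151 in induced 24 h, against 32.5, 57.1 and 32.01 in uninduced 48 h and 71.1, 59.96 and 63.9 in uninduced 24 h (1.24 ± 0.116 SE, limma adjusted p = 1.32e-07 for the comparison with 48 h). Sox18, a factor of endothelial cells, had 89.6, 97.3 and 82.04 in induced 24 h, against 23.1, 46.02 and 26.8 in uninduced 48 h (0.94 ± 0.138 SE, limma adjusted p = 4.24e-05). Gata2, a factor of blood progenitors, had 84.97, 142 and 96.8 in induced 24 h, against 39.4, 52.6 and 23.4 in uninduced 48 h (0.99 ± 0.158 SE, limma adjusted p = 1.17e-04), but it did not pass the test against uninduced 24 h embryoid bodies, where its signals were 75.2, 69.1 and 59.7 (0.47, limma adjusted p = 0.115). For Gata2 and Tal1 the uninduced level had fallen between 24 h and 48 h (-0.52 with limma adjusted p = 0.0185, and -0.44 with 0.00805). Over the list, 8 of 26 tested genes were higher and 3 lower, where 7.27% and 5.93% of all genes were. Of the 26, 10 were close, and the median log2 difference was 0.24. The lower genes were Sox17 (-2.58), a factor of endothelium as well as endoderm, the Vegf receptor gene Flt1 (-0.51, in 1 of 4 probe sets, a call lost with their mean at an adjusted p of 0.0894) and the homeobox gene Hhex (-0.46). The lower count was 1 without induced 24 h replicate 1 or uninduced 48 h replicate 1. Among the close genes were Lmo2, a partner of Tal1, Runx1, a factor of definitive blood, and the blood factor genes Gata1, Klf1 and Gfi1b. Gata1, Klf1 and Gfi1b were named after their values were seen. Their signals are not given here, and the offset of 32 can bring a dim gene close. Kdr, the Vegf receptor of early vascular mesoderm, was chosen after its values were seen. It had 112, 133 and 144 in induced 24 h, against 75.3, 136 and 77.5 in uninduced 48 h and 37.8, 40.5 and 38.1 in uninduced 24 h embryoid bodies. It was neither called nor close against uninduced 48 h (95% interval of the log2 difference 0.06 to 0.66).

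Hox genes of the anterior groups were dim in all uninduced cultures. Hoxb2 had signals of 68.01, 88.5 and 60.3 in induced 24 h, against 19.4, 25.8 and 19.4 in uninduced 48 h and 24.98, 17.4 and 31.3 in uninduced 24 h embryoid bodies (0.95 ± 0.17 SE, limma adjusted p = 4.07e-04 against 48 h). Hoxb3 had 60.7, 63.8 and 76.6 in induced 24 h, against 21.9, 19.13 and 22.5 in uninduced 48 h and 30.4, 25.3 and 10.8 in uninduced 24 h (0.89 ± 0.125 SE, limma adjusted p = 2.47e-05 against 48 h, in 1 of its 2 probe sets). Both were above all 6 uninduced arrays, and neither passed the test between uninduced 48 h and uninduced 24 h (log2 differences -0.07 and -0.01, limma adjusted p = 0.801 and 0.975). These were the 2 called genes among 7 tested anterior Hox genes of 12 in the list, and none was lower. Among central and posterior Hox genes 1 of 11 tested was higher and 0 lower. That is 9.09% called, under the 13.2% of all genes, so the list does not stand out. The higher gene was Hoxd13 (0.67 ± 0.138 SE, limma adjusted p = 0.00167), with 31.8 in induced 24 h, against 7.97 in uninduced 48 h on average. The latter is under the filter signal of 13.2, so of the groups compared only induced 24 h could bring Hoxd13 through the filter. It did not pass the test between induced and uninduced 24 h (limma adjusted p = 0.0621).

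Several genes of the extracellular matrix were higher in induced 24 h than in uninduced 48 h embryoid bodies, and more were close. Lama1, the laminin chain of early basement membranes, had signals of 119.8, 107 and 107 in induced 24 h, against 22.9, 26.7 and 15.2 in uninduced 48 h and 18.4, 25.4 and 17.4 in uninduced 24 h embryoid bodies. The induced arrays were above all uninduced ones, and the log2 difference from 48 h was 1.42 ± 0.11 (SE; limma adjusted p = 9.42e-09). Vcan, a proteoglycan of loose embryonic mesenchyme, had 392, 382 and 639 in induced 24 h, against 212, 152 and 155 in uninduced 48 h (1.27 ± 0.183 SE, limma adjusted p = 3.68e-05). Col1a2 (collagen I) was higher with a log2 difference of 0.88 ± 0.127 (SE; limma adjusted p = 3.88e-05), and Col18a1 (collagen XVIII, of basement membranes) with 0.69. Between induced and uninduced 24 h Col1a2 passed the test and Col18a1 did not (limma adjusted p = 0.0107 and 0.221). Over the list 9 of 26 genes were higher and 0 lower, where 7.27% and 5.93% of all genes were. Of the 26, 12 were close, with a median of 0.26. Without induced 24 h replicate 3 or uninduced 48 h replicate 3 the lower count was 1. From uninduced 24 h to 48 h, 6 of the 26 rose and 6 fell, where 12.8% and 11.7% of all genes did. Against uninduced 24 h, 8 were higher in induced 24 h and 0 lower, where 2.91% and 0.994% of all genes were.

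More markers of fibroblasts were higher than lower as well, and their list shares members with the matrix list, with Col1a2 and Col3a1 among the higher genes of both. Of 21 tested genes in the fibroblast marker list, kept because the stem cells had grown on feeder fibroblasts, 9 were higher and 1 was lower in induced 24 h than in uninduced 48 h embryoid bodies. Their summed signal was 4279 to 4519 on induced 24 h arrays, against 3246 to 3414 on uninduced 48 h and 3013 to 3456 on uninduced 24 h arrays. The higher members with the largest differences were Col1a2 (0.88), Acta2 (0.86), Fstl1 (0.76) and Postn (0.70), of which Acta2 is also a gene of smooth muscle and its probe set may match other transcripts. Between induced and uninduced 24 h Col1a2 and Fstl1 passed the test, and Acta2 and Postn did not (limma adjusted p = 0.0552 and 0.899). From uninduced 24 h to 48 h, 3 of the 21 rose and 7 fell, where 12.8% and 11.7% of all genes did. Against uninduced 24 h, 5 were higher in induced 24 h and 1 lower (5 and 0 with the replicate block), where 2.91% and 0.994% of all genes were. Tagln, Loxl1 and Thbs1 were close. Dcn and Lum, small proteoglycans typical of fibroblasts and chosen after their values were seen, did not pass the test: Dcn had 85.8, 67.8 and 64.9 in induced 24 h, against 50.7, 61.9 and 56.6 in uninduced 48 h (limma adjusted p = 0.267), and Lum had 17.9, 22.1 and 28.4 in induced 24 h, against 16.04, 16.5 and 18.03 in uninduced 48 h (limma adjusted p = 0.407). None of these marker genes was at 0 in either group, but no probe set was at 0 on any array (lowest signal 0.0187). This therefore says nothing about feeder cells. The part of feeder cells in the matrix result was not tested.

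Individual members of several lists were close to the uninduced 48 h level while above the uninduced 24 h level. They were put together after their values were seen. In the presomitic mesoderm list as a whole close genes were few, 7 of 29 (24.1%), beside 76.0% of all genes. Dact1, a modulator of Wnt signalling in the presomitic mesoderm, had signals of 305, 303 and 370.3 in induced 24 h, against 431, 390.3 and 364 in uninduced 48 h and 101, 91.8 and 105 in uninduced 24 h embryoid bodies. The induced arrays overlapped the 48 h arrays and were all above the 24 h ones. Its log2 difference from 48 h was -0.26 (95% interval -0.46 to -0.06; limma adjusted p = 0.0873). Nrarp, a target and feedback regulator of Notch, had 171, 203 and 173 in induced 24 h, against 175, 197 and 211 in uninduced 48 h and 62.6, 73.2 and 64.1 in uninduced 24 h (interval against 48 h -0.30 to 0.14). Snai1, which represses E-cadherin as cells leave the streak, had 45.2, 56.3 and 59.3 in induced 24 h, against 65.1, 60.9 and 49.2 in uninduced 48 h and 34.5, 17.1 and 21.9 in uninduced 24 h (interval -0.34 to 0.18). For each of these genes the induced 24 h and uninduced 48 h arrays overlapped. Twist1, a basic helix-loop-helix factor of mesenchyme, had 96.8, 92.3 and 71.1 in induced 24 h, against 106, 73.3 and 79.1 in uninduced 48 h and 39.5, 40.9 and 54.6 in uninduced 24 h (interval -0.23 to 0.25). The Notch ligand Jag1 had 439.5, 444 and 537 in induced 24 h, against 603, 552 and 448 in uninduced 48 h and 281, 242 and 323 in uninduced 24 h (interval -0.39 to 0.07). Col4a1 (collagen IV of basement membranes), Gata4 (a factor of cardiac mesoderm and endoderm) and Tagln (an actin-binding protein of smooth muscle) were close in the same way, with intervals of -0.14 to 0.32, -0.27 to 0.23 and -0.20 to 0.30.

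All of these genes were higher in induced 24 h than in uninduced 24 h embryoid bodies, and higher in uninduced 48 h than in uninduced 24 h. The log2 differences from uninduced 24 h were 1.44 for induced 24 h and 1.70 for uninduced 48 h in Dact1, 1.12 and 1.20 in Nrarp, 0.61 and 0.69 in Snai1, and 0.62 and 0.61 in Twist1. They share the uninduced 24 h arrays. Tbx6, the T-box factor that works with Msgn1 in the presomitic mesoderm, and Pdgfra, a receptor of paraxial mesoderm, were chosen after their values were seen. Tbx6 had 40.1, 48.3 and 32.7 in induced 24 h, against 33.8, 32.97 and 39.5 in uninduced 48 h and 8.48, 14.9 and 15.7 in uninduced 24 h (interval of the log2 difference from 48 h -0.14 to 0.33). Pdgfra had 179, 201 and 248 in induced 24 h, against 184, 260.3 and 174 in uninduced 48 h and 33.4, 33.5 and 47.1 in uninduced 24 h (interval -0.26 to 0.32). Both were close to uninduced 48 h and above uninduced 24 h. The plot of the time courses has a row of genes above the uninduced 48 h level, a row close to it and a row below it. The last row holds genes that had fallen by 48 h in uninduced cultures. In the first row the uninduced 48 h arrays lay above the uninduced 24 h ones for Dll3 and Wnt5a. For Hoxb2 and Fli1 they overlapped, so no spontaneous rise was seen in those genes.

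**Figure D2:**
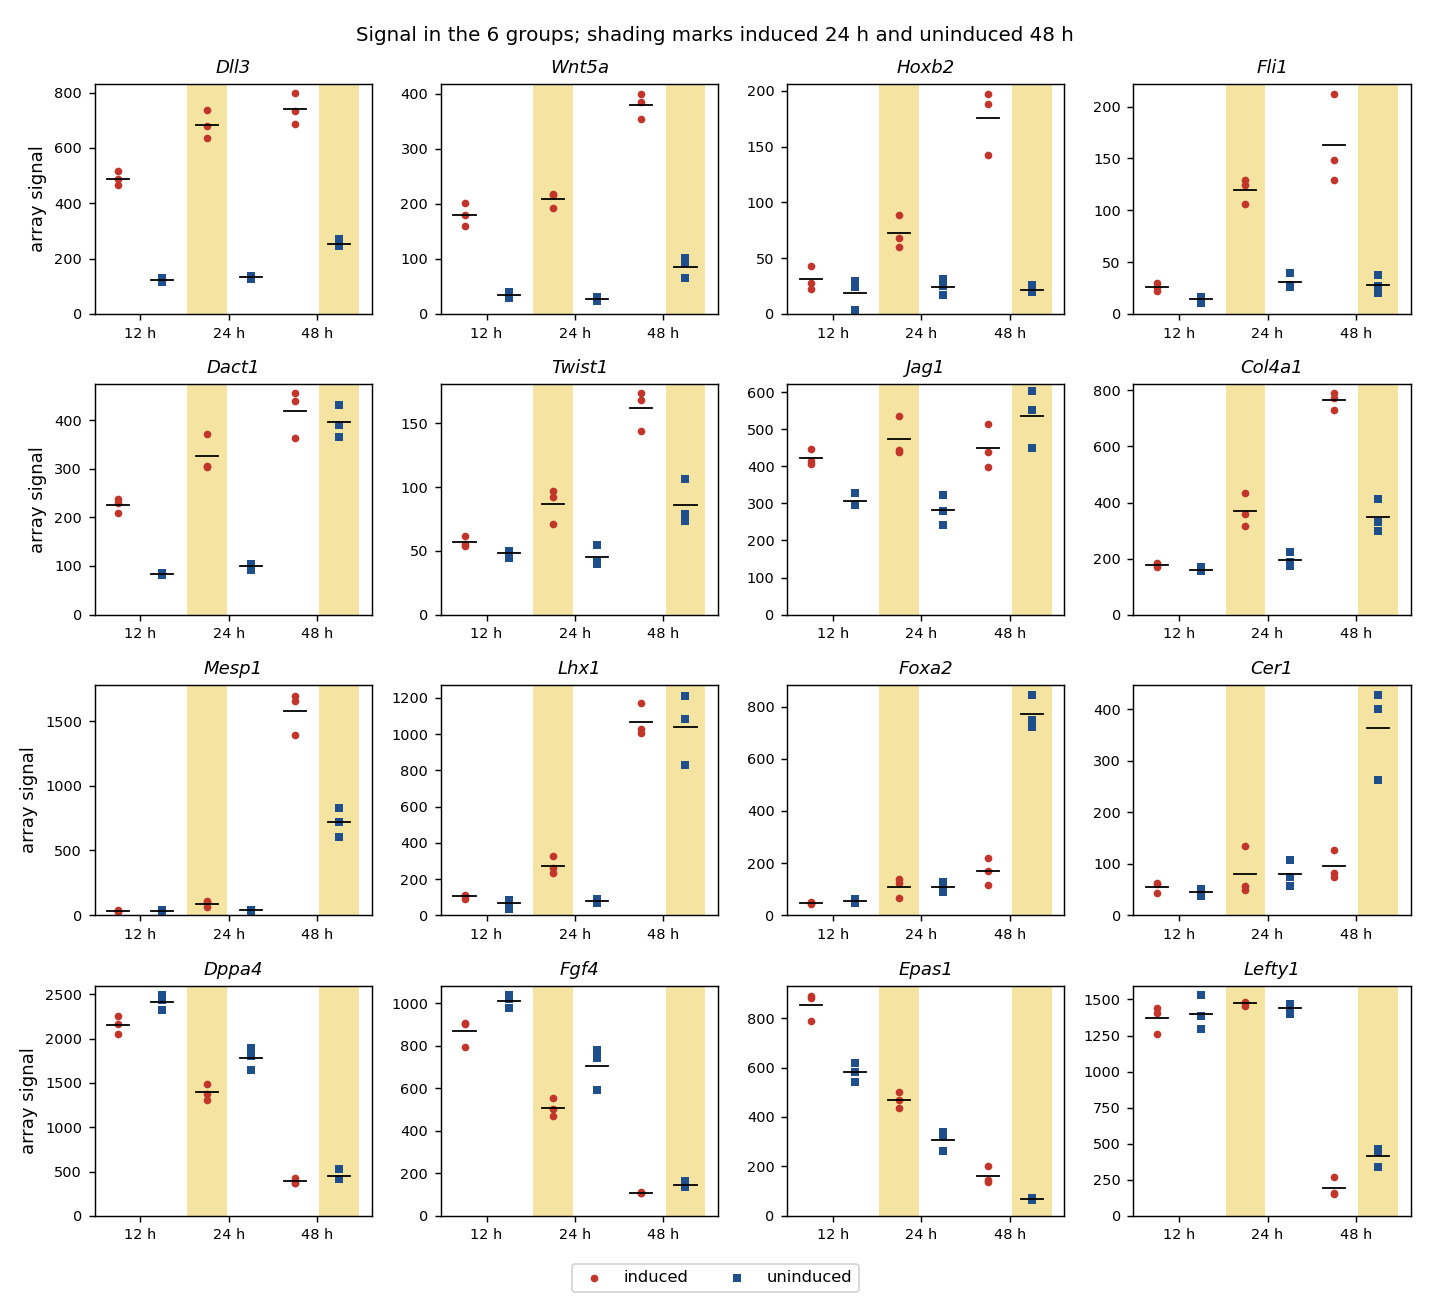
Array signal (linear vertical axes) of 16 genes at 12, 24 and 48 h, with induced arrays as red circles left of uninduced arrays as blue squares and bars at the group means of 3 arrays; shading marks the 2 groups compared, induced 24 h and uninduced 48 h. The rows show genes above the uninduced 48 h level (Dll3 to Fli1), genes close to it (Dact1 to Col4a1), genes below it (Mesp1 to Cer1) and genes that had fallen by 48 h (Dppa4 to Lefty1).

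Several genes of the primitive streak were above the uninduced 24 h level in induced 24 h embryoid bodies and below the uninduced 48 h level. Mesp1, a basic helix-loop-helix factor of nascent and cardiac mesoderm, had signals of 61.5, 109 and 101 in induced 24 h, against 721, 829 and 601 in uninduced 48 h and 43.1, 24.4 and 43.7 in uninduced 24 h embryoid bodies. The log2 difference from 48 h was -2.63 ± 0.165 (SE; limma adjusted p = 3.12e-10), the largest fall of all genes named by the rule. Mixl1, a homeobox factor of the streak, had 199.6, 244 and 342 in induced 24 h, against 1458, 1711 and 1179 in uninduced 48 h and 86.2, 65.2 and 143 in uninduced 24 h (-2.35 ± 0.188 SE, limma adjusted p = 1.43e-08 against 48 h). Lhx1, a LIM factor of the anterior streak and head organiser, had 231, 261 and 326 in induced 24 h, against 1213, 1081 and 830.2 in uninduced 48 h and 66.2, 76.2 and 91.3 in uninduced 24 h (-1.81 ± 0.165 SE, limma adjusted p = 9.39e-08). All 3 genes lay between the uninduced 24 h and 48 h means and did not overlap the 48 h arrays. Eomes, a T-box factor needed for mesoderm and endoderm, had 1241, 1522 and 1595 in induced 24 h, against 2871, 2848 and 2619 in uninduced 48 h and 427, 369 and 658 in uninduced 24 h (-0.93 ± 0.164 SE, limma adjusted p = 3.81e-04). Gata6, of endoderm and cardiac mesoderm, had 102, 99.1 and 133 in induced 24 h, against 309, 324 and 255 in uninduced 48 h and 64.1, 53.1 and 57.2 in uninduced 24 h (-1.20 ± 0.13 SE, limma adjusted p = 1.01e-06). Cyp26a1, the enzyme that clears retinoic acid from the posterior embryo, had 334, 359.8 and 470.3 in induced 24 h, against 1008, 1132 and 924 in uninduced 48 h and 112, 73.3 and 102 in uninduced 24 h (-1.33 ± 0.157 SE, limma adjusted p = 2.92e-06). Each of these was also called higher than in uninduced 24 h embryoid bodies, with log2 differences of 0.82 (Mesp1), 1.19 (Mixl1), 1.46 (Lhx1), 1.55 (Eomes), 0.66 (Gata6) and 1.71 (Cyp26a1). By comparison, uninduced 48 h exceeded uninduced 24 h by 3.44, 3.54, 3.28, 2.48, 1.86 and 3.05 in the same genes. Evx1, a posterior streak factor chosen after its values were seen, lay between the uninduced means as well (48.7, 69.4 and 87.6 in induced 24 h, against 174, 229 and 154 in uninduced 48 h and 34.00, 23.5 and 37.1 in uninduced 24 h; -1.12 ± 0.153 SE, limma adjusted p = 1.99e-05).

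Of 23 streak genes 20 were tested. In induced 24 h embryoid bodies 11 were lower and 3 higher than in uninduced 48 h ones, with a median log2 difference of -1.02. Against uninduced 24 h, 10 of the 20 were higher and 1 was lower, or 9 and 1 with the replicate number as a block. The members higher than at 48 h were Fgf4 (1.59), which stem cells also express, the Nodal antagonist gene Lefty2 (1.31) and the Nodal pathway factor Foxh1 (0.33, in 1 of 3 probe sets). Foxh1 lost its call without induced 24 h replicate 2 (limma adjusted p = 0.062) or uninduced 48 h replicate 3 (limma adjusted p = 0.0514). The Nodal ligand gene itself was close, at 936 in induced 24 h, against 1038 in uninduced 48 h (95% interval -0.38 to 0.09). Tdgf1, the Nodal co-receptor Cripto, was close at 4147 in induced 24 h, against 4489.6 in uninduced 48 h (-0.33 to 0.10), and so was Otx2, a factor of epiblast and anterior fates, at 2451 in induced 24 h, against 2549 in uninduced 48 h (-0.25 to 0.14).

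Most tested genes of the definitive endoderm and node list were below the uninduced 48 h level, and the 3 with the largest differences did not pass the test against uninduced 24 h. Sox17, a factor that specifies endoderm, had signals of 53.6, 74.8 and 90.1 in induced 24 h, against 727, 518 and 544 in uninduced 48 h and 78.3, 68.8 and 70.2 in uninduced 24 h embryoid bodies. The log2 difference from 48 h was -2.58 ± 0.149 (SE; limma adjusted p = 9.72e-11), and that from uninduced 24 h was -0.01 (95% interval -0.32 to 0.30). Its probe set may match other transcripts. Foxa2, a forkhead factor of endoderm, node and notochord, had 122, 65.99 and 139 in induced 24 h, against 844, 749 and 724 in uninduced 48 h and 111, 90.6 and 127 in uninduced 24 h (-2.55 ± 0.175 SE, limma adjusted p = 1.54e-09 against 48 h; interval against 24 h -0.40 to 0.33). Cer1, a secreted antagonist of Nodal, Bmp and Wnt made by anterior endoderm, had 49.3, 55.8 and 134 in induced 24 h, against 427, 263 and 400.2 in uninduced 48 h and 108, 55.9 and 73.5 in uninduced 24 h (-1.88 ± 0.223 SE, limma adjusted p = 3.43e-06; interval against 24 h -0.51 to 0.42). In these 3 genes the induced 24 h and uninduced 24 h arrays overlapped and both lay below all uninduced 48 h arrays. The intervals against uninduced 24 h are wide enough to leave room for changes of up to the bounds given. Chrd, a Bmp antagonist of the node, was lower than at 48 h (-0.80 ± 0.155 SE, limma adjusted p = 9.81e-04) and did not pass the test against uninduced 24 h (-0.14, adjusted p = 0.753). Fst, which encodes the activin antagonist follistatin, had 787, 983 and 1147 in induced 24 h, against 3129.9, 3549.6 and 3016 in uninduced 48 h and 891, 677 and 1304 in uninduced 24 h (-1.71 ± 0.158 SE, limma adjusted p = 1.05e-07; interval against 24 h -0.27 to 0.38).

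Of 18 tested genes in the endoderm and node list 12 were lower and 1 was higher in induced 24 h than in uninduced 48 h embryoid bodies, and the median log2 difference was -0.65. The higher one was Cldn4, a tight junction claudin (0.72, 414 in induced 24 h, against 238 in uninduced 48 h on average). Cldn4 did not pass the test between induced and uninduced 24 h (limma adjusted p = 0.786). Between uninduced 24 h and 48 h, 12 of these 18 genes rose and 1 fell. Between uninduced 24 h and induced 24 h, 3 were higher and 0 lower. Lhx1 and Hhex, both lower than at 48 h, were among these 3, with log2 differences from uninduced 24 h of 1.46 and 0.58 (limma adjusted p = 5.77e-06 and 0.00676). Trh was close, at a mean of 2562 in induced 24 h, against 2816 in uninduced 48 h, and so was Foxa3, at 46.1 in induced 24 h, against 48.04 in uninduced 48 h. At 48 h with doxycycline, in arrays the comparison does not use, Foxa2 had 116, 218 and 169.6 and Sox17 275, 366 and 312, while Mesp1 had 1653, 1389 and 1695 and Lhx1 1005, 1174 and 1031. The first pair was below uninduced 48 h (log2 differences -2.04 and -0.84), and the second pair had 1.11 and 0.05, with limma adjusted p of 4.68e-05 and 0.904. These differences share the uninduced 48 h arrays with the comparison, so they are not independent of it.

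Several genes of the undifferentiated stem cell, though not Nanog or Pou5f1, were higher in induced 24 h than in uninduced 48 h embryoid bodies. Dppa4, a chromatin-associated protein of pluripotent and germ cells, had signals of 1489.7, 1377 and 1312 in induced 24 h, against 416, 411 and 527 in uninduced 48 h and 1897, 1802 and 1648 in uninduced 24 h embryoid bodies. The log2 difference from 48 h was 1.57 ± 0.0844 (SE; limma adjusted p = 3.69e-11), and the induced arrays were below the uninduced 24 h ones (-0.35, adjusted p = 0.02). Fgf4, the growth factor that stem cells make, had 555, 505 and 469 in induced 24 h, against 138, 139.8 and 165 in uninduced 48 h and 782, 744 and 591 in uninduced 24 h (1.59 ± 0.0944 SE, limma adjusted p = 1.34e-10; 3 of 4 probe sets called). Its induced arrays were below uninduced 24 h too (-0.44, adjusted p = 0.00796). Dppa2, the partner of Dppa4, had 1009.7, 1033 and 1085 in induced 24 h, against 261, 172 and 273 in uninduced 48 h and 1478, 1448 and 1800.5 in uninduced 24 h (2.03 ± 0.154 SE, limma adjusted p = 7.86e-09), from a probe set that may match other transcripts. All 3 genes lay between the uninduced 24 h and 48 h means. Lefty1, a Nodal antagonist, had 1485, 1478 and 1453 in induced 24 h, against 443, 341 and 462 in uninduced 48 h and 1471, 1396 and 1454 in uninduced 24 h (1.76 ± 0.135 SE, limma adjusted p = 8.86e-09). Epas1, a hypoxia-inducible factor, had 470.2, 437 and 500.4 in induced 24 h, against 74.1, 69.8 and 64.1 in uninduced 48 h and 322, 263 and 339 in uninduced 24 h (2.31 ± 0.108 SE, limma adjusted p = 5.80e-12), and stood above uninduced 24 h as well (0.57, adjusted p = 0.00297). Rhox5 and Mageb16, X-linked genes best known from germ cells, had means of 796 and 526 in induced 24 h, against 175 and 129.7 in uninduced 48 h embryoid bodies.

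In the naive pluripotency list 11 of 20 genes were higher in induced 24 h embryoid bodies and 1 was lower, with a median log2 difference of 0.41. In the core pluripotency and germline list the counts were 11 and 1 of 20, with a median of 0.56. Higher genes included Nr0b1 (1.26), Zfp42 (1.17), Fbxo15 (1.04) and Tex19.1 (1.24). The lower gene of both lists was Nanog, a core factor that also marks the early streak, with signals of 1388, 1315 and 1394 in induced 24 h, against 1821, 1741 and 1677 in uninduced 48 h and 1046, 1083 and 1294 in uninduced 24 h embryoid bodies (-0.35 ± 0.0806 SE, limma adjusted p = 0.0049 against 48 h). Its level in uninduced cultures rose between 24 h and 48 h (0.61, adjusted p = 7.53e-06). Pou5f1 (Oct4) was close, with 4259.6, 4251 and 4673 in induced 24 h, against 4419, 4036 and 3899 in uninduced 48 h (95% interval -0.04 to 0.23), so this marker of pluripotent and early streak cells did not separate the groups. Without uninduced 48 h replicate 3 the lower count of the naive list was 2. Between uninduced 24 h and 48 h, 12 naive genes fell and 1 rose. Against uninduced 24 h, 5 were lower in induced 24 h embryoid bodies and 1 higher, or 6 and 0 with the replicate number as a block.

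The largest rise among all genes named by the rule was in Hprt, a purine salvage enzyme, with signals of 1372, 1343 and 1749.8 in induced 24 h, against 210.1, 252 and 211 in uninduced 48 h and 219, 321 and 212 in uninduced 24 h embryoid bodies (2.56 ± 0.123 SE, limma adjusted p = 6.05e-12). As background, the A2lox cassette that holds the doxycycline promoter lies beside Hprt. The uninduced groups did not separate (-0.12 between 48 h and 24 h). The plot of the 24 largest differences shows Hprt as the gene whose uninduced 24 h arrays lie with the uninduced 48 h arrays, while in the other 11 higher genes they lie nearer the induced ones.

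**Figure D3:**
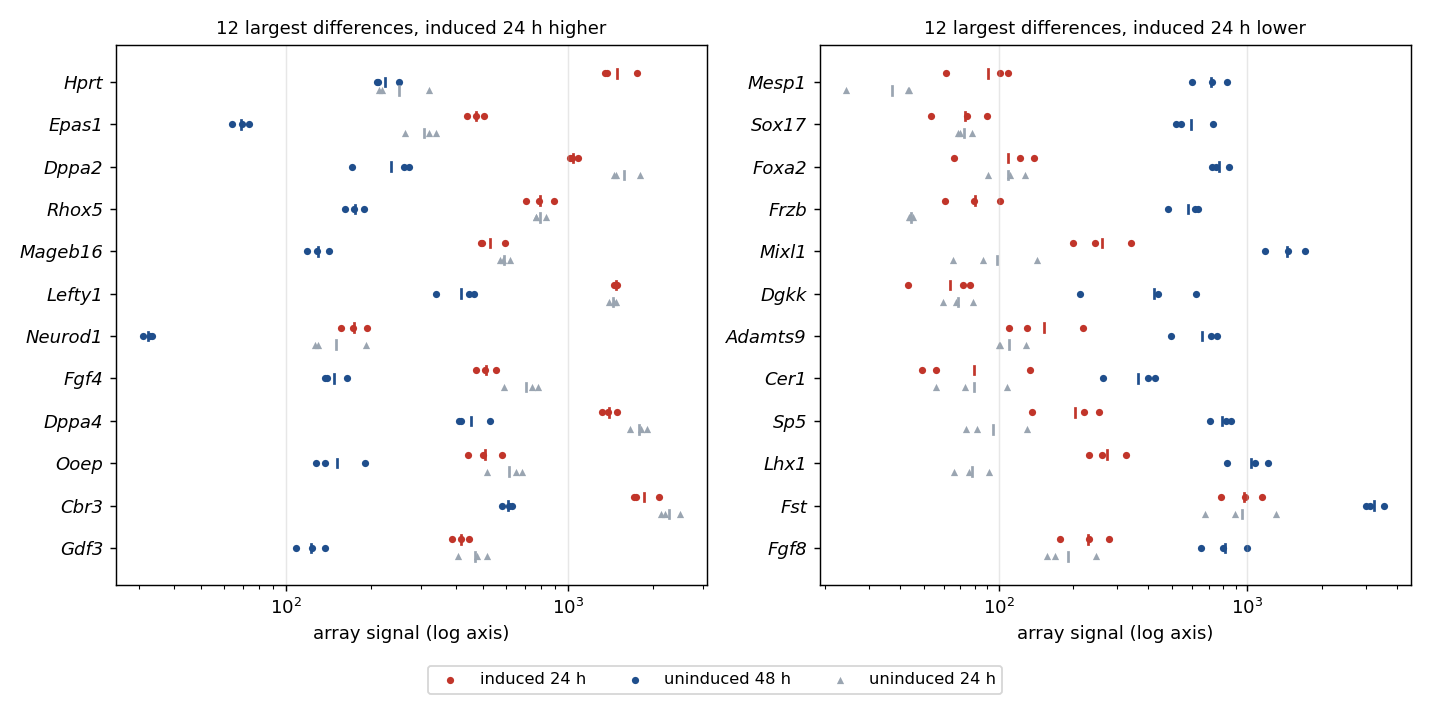
Signal (log axis) of the 12 genes with the largest rises (left) and the 12 with the largest falls (right) in induced 24 h relative to uninduced 48 h embryoid bodies. Red circles are induced 24 h arrays, blue circles uninduced 48 h arrays and grey triangles uninduced 24 h arrays, 3 each, with bars at the group means; red and blue circles do not overlap in any of the 24 genes.

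In the list of Wnt targets and feedback genes 8 of 20 were lower in induced 24 h embryoid bodies and 1 was higher, 7 were close and the median log2 difference was -0.27. Sp5, a transcription factor that Wnt signals induce directly, had signals of 136, 220.3 and 253 in induced 24 h, against 819.9, 863 and 706 in uninduced 48 h and 81.9, 73.5 and 129.8 in uninduced 24 h embryoid bodies (-1.85 ± 0.16 SE, limma adjusted p = 4.32e-08 against 48 h). The groups compared did not overlap. Dkk1, a secreted antagonist that Wnt signals switch on, had 73.4, 99.1 and 139 in induced 24 h, against 451, 351 and 388 in uninduced 48 h and 66.5, 52.6 and 65.4 in uninduced 24 h (-1.68 ± 0.133 SE, limma adjusted p = 1.20e-08). Rspo3, a secreted enhancer of Wnt signals, and Sp8, a relative of Sp5, had log2 differences of -1.15 (1 of 2 probe sets called) and -1.06. Axin2, the usual readout of the canonical pathway and chosen after its values were seen, had 159.6, 164 and 186 in induced 24 h, against 278, 290.1 and 258 in uninduced 48 h (-0.61 ± 0.126 SE, limma adjusted p = 0.00188, in 1 of 2 probe sets), and did not pass the test against uninduced 24 h (0.43, adjusted p = 0.0578). The higher gene, Nkd2, was called in 1 of 4 probe sets and lost the call without induced 24 h replicate 1 or 2 or uninduced 48 h replicate 2 or 3, and 2 genes were called higher without uninduced 48 h replicate 1.

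Among Wnt ligands, receptors and antagonists 13 of 36 genes were lower and 3 higher, with a median of -0.22. Frzb, a secreted Wnt-binding protein, had signals of 60.6, 79.4 and 101 in induced 24 h, against 633, 619 and 481 in uninduced 48 h and 45.02, 43.9 and 43.7 in uninduced 24 h embryoid bodies (-2.45 ± 0.143 SE, limma adjusted p = 1.21e-10). Wnt8a, a streak ligand, was lower by a log2 difference of -1.05, and the receptor gene Fzd1 of -0.76 (1 of 2 probe sets called). The ligand gene Wnt5a (1.04) was on the other side. The receptor genes Fzd7, Fzd5 and Ryk were close, with mean signals for Fzd7 of 1365 in induced 24 h, against 1321 in uninduced 48 h, for Fzd5 of 222 in induced 24 h, against 259 in uninduced 48 h and for Ryk of 425 in induced 24 h, against 492 in uninduced 48 h. From uninduced 24 h to 48 h, 20 of the 36 genes rose and 1 fell. Between induced and uninduced 24 h embryoid bodies, 6 were higher and 0 lower.

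Fgf ligand genes went both ways. Fgf8, the ligand of the streak and posterior presomitic mesoderm, had signals of 176, 232 and 279 in induced 24 h, against 803, 996 and 651 in uninduced 48 h and 156, 169 and 247 in uninduced 24 h embryoid bodies. It was below the 48 h level (-1.70 ± 0.156 SE, limma adjusted p = 1.03e-07) and did not pass the test against uninduced 24 h (95% interval -0.09 to 0.56). Fgf5, a ligand of the primed epiblast, was also lower (-0.92, 827 in induced 24 h, against 1586 in uninduced 48 h on average). Fgf15 (0.88, 221 in induced 24 h, against 103 in uninduced 48 h) was higher, and so was Spry4, a feedback inhibitor of Fgf receptors (0.69, in 1 of 3 probe sets). Neither passed the test between induced and uninduced 24 h (limma adjusted p = 0.864 and 0.337). The inhibitor genes Spry2 and Il17rd were close. Of 23 Fgf pathway genes 5 were higher and 4 lower. The higher count was 3 without induced 24 h replicate 2 or uninduced 48 h replicate 2, and the lower count was 2 without induced 24 h replicate 1.

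In the Bmp, Nodal and Tgf-beta list 7 of 26 genes were higher and 6 lower, 10 were close and the median log2 difference was -0.12. The higher genes with the largest differences were the Nodal antagonists Lefty1 (1.76) and Lefty2 (1.31), the ligand Gdf3 (1.54) and Id4 (0.72, in 2 of 3 probe sets), whose family Bmp signals induce. Of these only Lefty2 passed the test between induced and uninduced 24 h. The limma adjusted p there was 0.954 for Lefty1, 0.553 for Gdf3 and 0.987 for Id4. The lower ones were Cer1 (-1.88), Fst (-1.71), the ligand Bmp2 (-1.23) and Chrd (-0.80). Lefty2 had signals of 1408, 1436 and 1466 in induced 24 h, against 531, 583 and 566 in uninduced 48 h and 924, 897 and 1013 in uninduced 24 h embryoid bodies. Id3 was close, at 827 in induced 24 h, against 774 in uninduced 48 h.

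Among epithelial genes the keratins and some junction genes were lower, and the adhesion genes Cdh1 and Epcam were close. Cdh1 (E-cadherin), which epithelial cells lose as they become mesoderm, was close, with signals of 3707, 3912 and 4124 in induced 24 h and 4041, 3517 and 3682 in uninduced 48 h embryoid bodies (95% interval -0.16 to 0.28). Epcam was close as well (1852 in induced 24 h, against 1962 in uninduced 48 h). The keratin genes Krt8 (-0.84), Krt18 (-0.56) and Krt19 (-1.32) were lower, with Krt8 at 706, 808 and 837 in induced 24 h, against 1672, 1291 and 1338 in uninduced 48 h. The desmosome gene Dsp was lower (-0.75 ± 0.133 SE, limma adjusted p = 4.04e-04, from a probe set that may match other transcripts), and so were the claudin genes Cldn3, Cldn7 and Cldn6, named after their values were seen. Of 28 tested epithelial genes 10 were lower and 3 higher, and 14 were close. The lower count was 6 without induced 24 h replicate 3 or without uninduced 48 h replicate 3. Cdh2 (N-cadherin), which mesoderm gains, was lower (616, 732 and 865 in induced 24 h, against 1888, 1730.2 and 1541 in uninduced 48 h; -1.19 ± 0.113 SE, limma adjusted p = 1.58e-07), and it stood at 483, 424 and 612 in uninduced 24 h embryoid bodies. In the mesenchymal list 3 of 22 genes were higher and 1 was lower, so 18.2% were called, beside 13.2% of all genes. The lower count was 2 without induced 24 h replicate 3 and 3 without uninduced 48 h replicate 3.

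Lists of later mesoderm and of other lineages held fewer called genes than the streak and endoderm lists. In the lateral and cardiac list 3 of 26 genes were higher and 4 lower, with 12 close. The higher genes included Myh6, a cardiac myosin gene (0.73, 80.8 in induced 24 h, against 35.8 in uninduced 48 h), and Tbx3 (0.69, in 2 of 3 probe sets), which stem cells also express. Myh6 did not pass the test between induced and uninduced 24 h (limma adjusted p = 0.869). The lower ones included Msx2 (-0.86) and Msx1 (-0.44), homeobox genes that Bmp signals induce, each in 1 of 2 probe sets, and the Msx1 probe set may match other transcripts. The cardiac genes Myl7 and Isl1 were close. Of 21 somite genes 9 were bright enough to be tested, of which 1 was higher. That is 11.1% called, under the 13.2% of all genes. The higher gene was Tcf15 (0.64, 213, 209 and 198 in induced 24 h, against 119, 127 and 118 in uninduced 48 h), a factor of somite and epiblast. Among 19 extraembryonic endoderm genes 2 were higher and 4 lower, and 12 were close. Of 15 trophoblast genes 1 was higher and 4 lower, among them Eomes, Krt8 and Krt18, which other tissues share. The higher one, Esx1, lost its call without induced 24 h replicate 1. Cdx2 was close, at 27.5 in induced 24 h, against 34.6 in uninduced 48 h.

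In the early neural list 7 of 19 genes were higher and 2 lower, with 8 close. Neurod1, a neural basic helix-loop-helix factor, had signals of 156, 173 and 193 in induced 24 h, against 31.03, 32.8 and 33.4 in uninduced 48 h and 127, 129 and 193 in uninduced 24 h embryoid bodies (1.67 ± 0.129 SE, limma adjusted p = 9.48e-09), and its induced and uninduced 24 h arrays overlapped. Tubb3 (neuronal tubulin) was higher as well (1.25). Nes (nestin) and Zic2 were lower (-0.89 and -0.56), with Nes called in 2 of 3 probe sets. Sox3 and Irx3 were close. Of 18 primed epiblast genes 5 were higher, including Dnmt3l (1.28, from a probe set that may match other transcripts), Dnmt3a (0.80, in 3 of 5 probe sets) and Pou3f1 (0.75), and 4 were lower, including Fst (-1.71), Cdh2 (-1.19) and Fgf5 (-0.92). The bar plot by list sets these counts beside those over all genes.

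**Figure D4:**
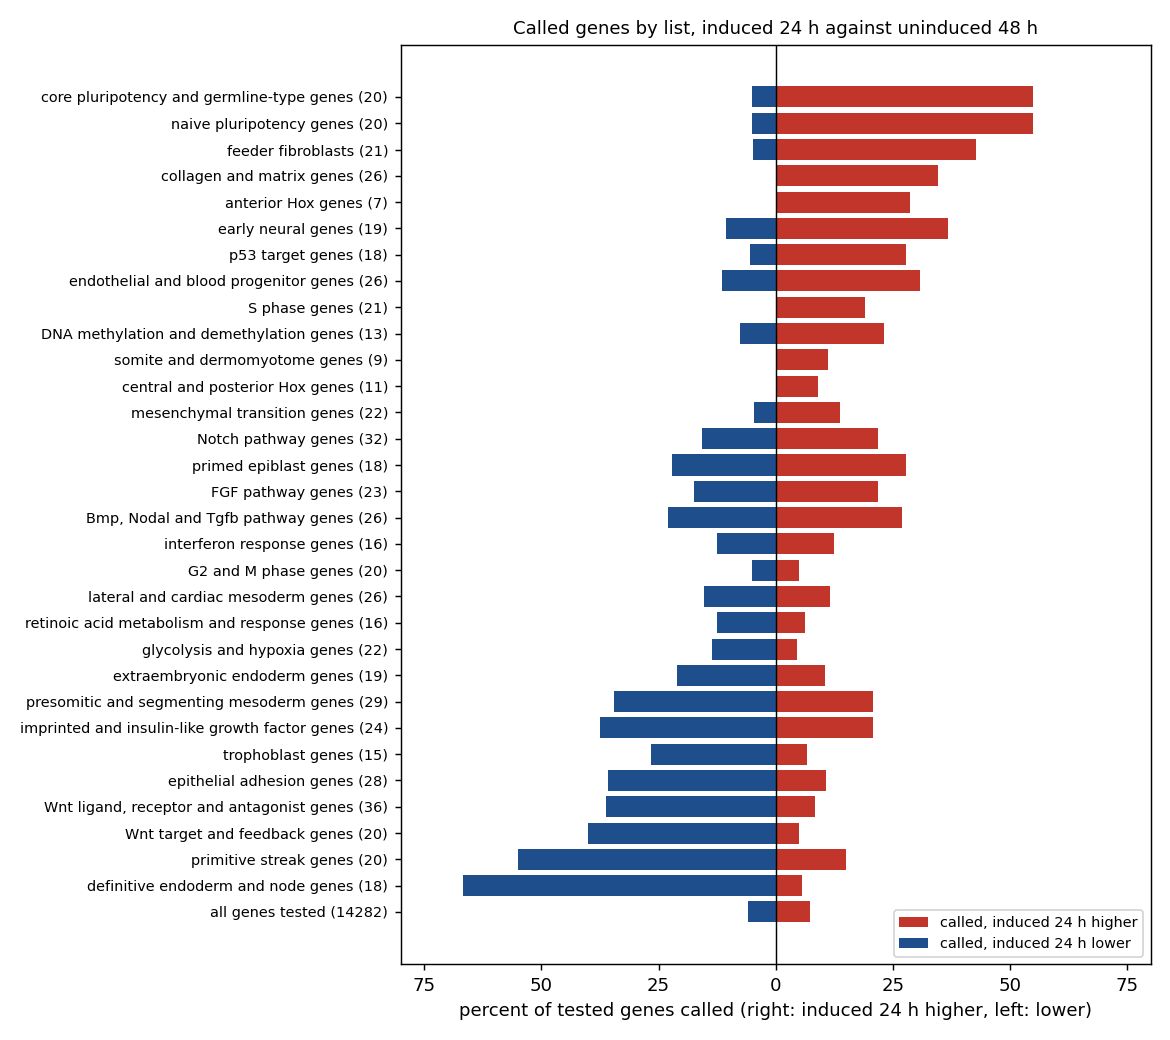
Percent of the tested genes in each list called higher (right, red) or lower (left, blue) in induced 24 h relative to uninduced 48 h embryoid bodies, with the number of tested genes in brackets and all 14282 genes at the bottom. The core and naive pluripotency lists reach farthest to the right, and the definitive endoderm and node and primitive streak lists farthest to the left.

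The early spontaneous course was marked with arrays that the comparison does not use, uninduced 24 h against uninduced 12 h. In that span 314 genes rose (2.2% of all genes) and 260 fell (1.82%). Among all genes 5.93% were lower, 7.27% higher and 76.0% close in induced 24 h against uninduced 48 h embryoid bodies. Of the 314 genes that rose, 100 were lower and 19 were higher in that comparison. Of the 314, 188 (59.9%) were close, and the median log2 difference was -0.13, beside 0.02 over all genes. Of the 260 genes that fell, 126 were higher and 8 were lower, 127 (48.8%) were close, and the median was 0.28. The 2 groups of genes thus lay on opposite sides of the median over all genes. Eomes is an early riser: it had 427, 369 and 658 in uninduced 24 h, against 247, 247 and 269.8 in uninduced 12 h embryoid bodies (log2 difference 0.81 ± 0.164 SE, limma adjusted p = 0.00682), and stood -0.93 from the 48 h level in induced 24 h embryoid bodies. Fst rose by 1.05 in the same span and was -1.71 from the 48 h level. Epas1 is an early faller, with 322, 263 and 339 in uninduced 24 h, against 581, 618 and 542 in uninduced 12 h embryoid bodies (-0.85), and it was 2.31 above the 48 h level in the induced group. The counts of early risers and fallers depend on single arrays: without uninduced 12 h replicate 2 the early course called 189 genes, and without uninduced 24 h replicate 3 it called 914, against 574 with all arrays. It called 290 without uninduced 12 h replicate 1, 236 without uninduced 24 h replicate 1 and 242 without uninduced 24 h replicate 2. The early risers that were lower in induced 24 h than in uninduced 48 h embryoid bodies then numbered 43 without uninduced 12 h replicate 2, 60 without uninduced 24 h replicate 1 and 59 without uninduced 24 h replicate 2. The early fallers that were higher numbered 73 without uninduced 12 h replicate 1, 62 without uninduced 12 h replicate 2, 75 without uninduced 24 h replicate 1 and 64 without uninduced 24 h replicate 2.

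**Figure D5:**
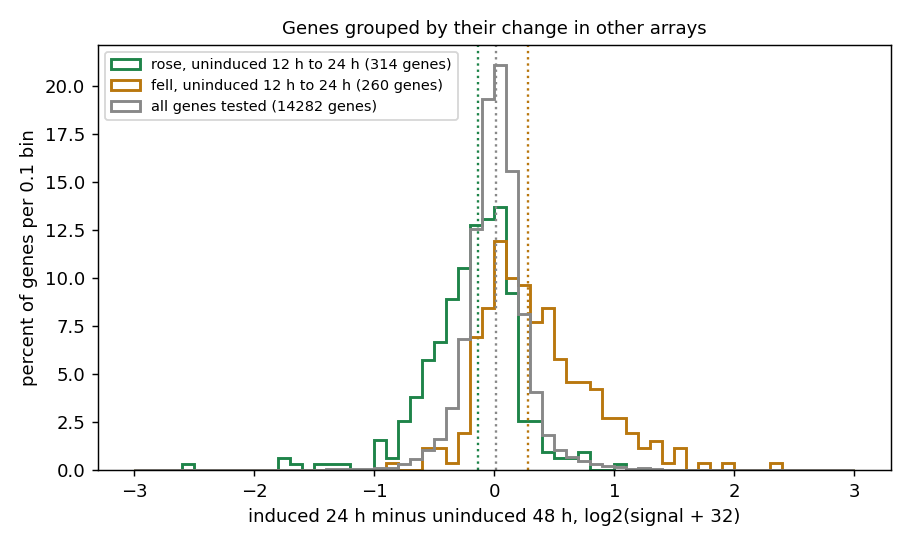
Distribution of the log2(signal + 32) difference between induced 24 h and uninduced 48 h embryoid bodies (horizontal axis, bins of 0.1) for the 314 genes that rose and the 260 that fell from uninduced 12 h to 24 h, as percent of genes in each set, beside all 14282 genes. Dotted lines mark the medians, which lie at -0.13 for genes that rose, 0.28 for genes that fell and 0.02 for all genes.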

How the data were processed

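The study used 18 Affymetrix arrays of 1 colour, 3 for each of 6 groups of embryoid bodies. Group and replicate number were read from each title. Per the labels' protocols, 100 ng of total RNA with an integrity number above 9 was labelled with biotin. The authors deposited linear signal intensity for 45101 probe sets. GCOS was used, per the submitters' processing notes; how it was set is not given in the sources used. The 2% trimmed mean of the authors' deposited intensity was 150 on every array, so arrays had been scaled. No 2 arrays were identical.

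Values were taken as log2(signal + 32). Of the non-control probe sets 34945 were matched to 1 gene, 932 to several and 9160 to none, and the last 2 kinds were not used. Probe sets whose group mean reached the 40th percentile (a signal of 13.2) in at least 1 group passed the filter (25895). For each of 14282 genes the brightest of its probe sets on average was used, and 6675 genes had several. A gene that passed this filter through 1 group alone had to be bright there. Limma 3.58.1 in R 4.3.3 fitted 1 mean per group over all 18 arrays (12 residual degrees of freedom, intensity trend), and 2-sided p-values were adjusted by the Benjamini-Hochberg method over all genes.

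Genes were named by rule: Msgn1, the 12 largest rises and falls with arrays apart, up to 4 called members in each direction and 3 close members per list, and the 8 largest early rises and falls, without clone names. The groups and the 31 lists (625 genes, of which 589 were matched and 541 tested) were chosen with earlier results of these data known. Replicate numbers were checked for pairing through correlations of deviations from group means. These were over 0.1 for all 3 numbers between induced and uninduced 24 h (0.20, 0.12 and 0.45) and for no other comparison. Pairs of unlike number reached similar values there: 0.21 for induced 1 with uninduced 2, and 0.11 for induced 2 with uninduced 1. Pairing by number was thus clear for number 3 only. Other settings tried were quantile normalization, other filters (none, 60th percentile) and offsets (16, 64), the mean of probe sets, probe set level, a robust or no trend, fits without the other groups, a replicate block, and leaving out each array. Steps were tested on simulated data. Python 3.11.15 (pandas 2.3.3, numpy 2.4.6, matplotlib 3.10.9) made tables and figures.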

Additional observations from a re-analysis of the deposited data

How the results depend on the processing

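Of the 149 named genes that were called, 111 kept their call under all 29 alternatives, 34 lost it without at least 1 array and 23 under at least 1 other setting; 10 of the 92 named genes that were not called became called, and no difference changed sign among those called. All 24 genes with the largest differences kept their call, at an adjusted p of at most 3.43e-06. At probe set level, where each probe set was tested for itself, 1428 were lower and 19369 close. With the arrays of each comparison alone, which leaves fewer arrays to estimate the spread, the early uninduced course called 172 genes (87 higher, 85 lower), 44 of the genes that rose were lower and 59 of those that fell were higher in induced 24 h than in uninduced 48 h embryoid bodies, and induced against uninduced 24 h called 241. When each of the 18 arrays was left out in turn, the main comparison called 1380 to 2037 genes (782 to 1122 higher, 598 to 915 lower) and 9780 to 10955 were close. The early course called 189 to 914 (100 to 474 higher, 89 to 440 lower), genes that rose and were lower numbered 43 to 112, genes that fell and were higher 62 to 154, and induced against uninduced 24 h called 306 to 587, with 306 without induced 24 h replicate 2 and 331 without uninduced 24 h replicate 1. List members called numbered 167 to 206, against 199. With the replicate number as a block the comparison called 1801 genes (998 higher, 803 lower) and 10835 were close. Same-numbered arrays did not pair between induced 24 h and uninduced 48 h (correlations of deviations -0.15, 0.022 and -0.23). Between induced and uninduced 24 h, where they did, the block moved that count to 504 and changed no call printed here of a named gene. In simulated data of 14282 genes with normal noise, 67 of 100 differences of 0.5 and 99 of 100 of 1 were recovered with 10 false calls. No other genes were changed there, far fewer than the 1886 called in the data. The adjustment is stricter with so few, so these rates do not give the recovery in the comparison itself.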

Other observations

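Genes of the insulin-like growth factor system and imprinted genes went both ways, with 5 of 24 higher and 9 lower in induced 24 h than in uninduced 48 h embryoid bodies. Igf2, the imprinted growth factor, had signals of 368, 465 and 498 in induced 24 h, against 217, 257 and 268 in uninduced 48 h and 131, 149 and 152 in uninduced 24 h embryoid bodies (0.76 ± 0.141 SE, limma adjusted p = 6.19e-04 against 48 h, in 1 of 2 probe sets). Igfbp4, a binding protein of the factor, had 669, 743 and 817 in induced 24 h, against 303, 416 and 321 in uninduced 48 h and 219, 235 and 225 in uninduced 24 h (1.04 ± 0.111 SE, limma adjusted p = 7.96e-07, in 4 of 6 probe sets). Both lay above all uninduced arrays. Phlda2, an imprinted growth regulator of the placenta, was higher by 0.68, and Gab1, a signalling adaptor, by 1.10. Between induced and uninduced 24 h Phlda2 passed the test and Gab1 did not (limma adjusted p = 0.00445 and 0.287). The adaptor gene Irs1 (-1.01), the binding protein gene Igfbp3 (-0.93) and the receptor gene Igf1r (-0.69, in 2 of 4 probe sets) were lower. The imprinted genes Mest and Sgce were close. Sgce had 108, 113 and 115 in induced 24 h, against 112, 164 and 98.1 in uninduced 48 h and 56.4, 63.1 and 59.04 in uninduced 24 h embryoid bodies.

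Of 18 p53 target genes 5 were higher and 1 was lower. The cell cycle inhibitor gene Cdkn1a had signals of 579, 641 and 607 in induced 24 h, against 409, 411 and 399 in uninduced 48 h and 583, 504 and 639.9 in uninduced 24 h embryoid bodies (0.55 ± 0.0968 SE, limma adjusted p = 3.80e-04 against 48 h, in 1 of 2 probe sets), and Gadd45a, a stress-response gene, had 311, 300.2 and 294 in induced 24 h, against 193, 217 and 189.7 in uninduced 48 h and 421, 380.5 and 406 in uninduced 24 h (0.52 ± 0.0859 SE, limma adjusted p = 1.60e-04). For each the uninduced level had fallen from 24 h to 48 h (log2 differences -0.47 and -0.91, limma adjusted p = 0.00107 and 7.12e-08). The lower count was 0 without induced 24 h replicate 2, and 2 without induced 12 h replicate 1, induced 48 h replicate 1 or uninduced 24 h replicate 2 or 3. Of 16 interferon-response genes 2 were higher and 2 lower. Ifitm3, a membrane protein also expressed by early germ cells, was higher (1546, 1576 and 1656 in induced 24 h, against 721, 645 and 696 in uninduced 48 h; 1.18 ± 0.0723 SE, limma adjusted p = 2.29e-10), and B2m, the light chain of class I molecules, was lower (-0.39). The lower count was 1 without induced 24 h replicate 3 or uninduced 48 h replicate 2. Of 21 S phase genes 19 (90.5%) were close, beside 76.0% of all genes, among them Pcna (5728 in induced 24 h, against 5409.9 in uninduced 48 h), and 4 were higher, a count of 1 without induced 24 h replicate 2 or uninduced 48 h replicate 3 and of 2 without induced 24 h replicate 3 or uninduced 48 h replicate 2. Of 20 G2 and M phase genes 16 were close, a share near that of all genes. Crabp1, which binds retinoic acid, was higher (0.74), but it did not pass the test between induced and uninduced 24 h (limma adjusted p = 0.422). In the retinoic acid list 1 of 16 genes was higher and 2 lower (1 lower without induced 24 h replicate 3). That is 18.8% called, beside 13.2% of all genes. In the DNA methylation list 3 of 13 were higher and 1 lower (0 lower without induced 24 h replicate 1 or 3 or uninduced 48 h replicate 1 or 2). In the glycolysis and hypoxia list 1 of 22 was higher and 3 lower, so 18.2% were called, beside 13.2% of all genes. The lower count was 1 without induced 24 h replicate 3 or uninduced 48 h replicate 1 or 2, and the higher count was 0 without induced 24 h replicate 1 or 2 or any uninduced 48 h replicate.

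Outside the lists, Dgkk, a diacylglycerol kinase gene, and Adamts9, a matrix protease gene, were among the 12 largest falls. Dgkk had signals of 43.1, 76.4 and 71.5 in induced 24 h, against 620.3, 438 and 213 in uninduced 48 h and 67.4, 59.4 and 78.6 in uninduced 24 h embryoid bodies (-2.16 ± 0.235 SE, limma adjusted p = 1.03e-06 against 48 h). Adamts9 had 109.8, 129.9 and 218 in induced 24 h, against 759.8, 718 and 493 in uninduced 48 h and 100.3, 101 and 129 in uninduced 24 h (-1.92 ± 0.17 SE, limma adjusted p = 5.88e-08). Neither passed the test between induced and uninduced 24 h embryoid bodies (limma adjusted p = 0.922 and 0.353).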
